A study of Mus musculus with 18 samples.

Results

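The tumour suppressor p53, the DNA damage kinase ATM and 8 genes that p53 or DNA damage can induce were followed in mouse dendritic cells (DCs) that had been squeezed under a low ceiling or treated with lipopolysaccharide (LPS). The genes were chosen by symbol, namely *Trp53*, *Atm*, *Mdm2*, *Cdkn1a*, *Btg2*, *Gadd45a*, *Gadd45b*, *Ccng1*, *Phlda3* and *Bbc3*. Each symbol matched 1 entry of the table of normalized counts, so that 10 of its 62197 entries are described here. All 10 passed the filter on low values, and the lowest value of any of them in any library was 108 normalized counts, for *Atm*. The study asked how confinement of a DC changes its transcription and what the phospholipase cPLA_2_ has to do with it. Polyadenylated RNA was sequenced in bulk, with 3 libraries in each of 6 conditions. Nonconfined WT cells, which were wild type for cPLA_2_ and untreated, and nonconfined KO cells, which came from cPLA_2_ knockout mice, were taken at the end of the culture. Confined WT and confined KO cells were held at a height of 3 µm and taken after 4 h. LPS WT and LPS KO cells were given LPS at 100 ng/ml for 30 min by the sample records (the study's methods give a slightly shorter time), washed and taken on the following day. The protocol text of every sample mentions LPS, but titles and treatment entries give it to the LPS groups only, which was followed. Collection times therefore differ between the treatments.

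All cells were grown from bone marrow over 10 days with supernatant of transfected J558 cells as the source of granulocyte–macrophage colony-stimulating factor (GM-CSF). By the study's methods, the marrow came from mice of 6 to 8 weeks, and the semi-adherent cells were kept. They name granulocytes and macrophages as by-products that this choice by adhesion leaves behind, and report CD11c on most recovered cells. The knockout was a conditional *Pla2g4a* allele made with CRISPR–Cas9 and crossed with *Itgax-cre*, which puts Cre under the promoter of the CD11c gene, so deletion can follow only where and when that promoter is active. The labels do not say whether the libraries of a group came from separate animals, so the p-values below measure only the spread between libraries.

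p53 is a transcription factor that is held at a low level by MDM2, a ubiquitin ligase whose gene p53 itself switches on, and that is stabilized when kinases such as ATM sense broken DNA. Among the genes it induces, *Cdkn1a* encodes p21, an inhibitor of cyclin-dependent kinases that halts the cell cycle, and *Bbc3* encodes PUMA, which promotes apoptosis. Several of these genes also respond to signals other than p53, *Gadd45b* to NF-κB for example, and p53 is regulated largely at the level of its protein, which was not measured.

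The recovered reads on genes ranged from 33027230 to 61300021 per library, with a median of 40950397. *Atm*, which held the lowest single value of the 10, had at least 94 reads in every library. Values are gene counts that the authors divided by a DESeq2 size factor per library, without scaling for gene length. They were compared as log2(normalized count + 1) with limma in 1 fit over the 18 libraries. A gene counts as changed at an adjusted p under 0.05 over the 17875 genes tested. In bulk RNA, fewer cells of a type and less RNA per cell cannot be told apart.

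The labels were checked against *Pla2g4a* and a Y-linked gene before any comparison. *Pla2g4a* was present at 697, 686 and 770.4 normalized counts in nonconfined WT libraries and at 548, 542 and 533 in nonconfined KO libraries. In confined cells it was present at 1369, 1430.3 and 1321 in WT and at 923, 871 and 919.5 in KO libraries. In both treatments every KO library lay below every WT library (log2 fold change -0.41, adjusted p = 0.0001905 in nonconfined cells and -0.60, adjusted p = 3.81e-08 in confined cells, limma). The libraries labelled LPS did not follow this order, with 1005, 969 and 967 under the WT label and 1065, 1032 and 1028 under the KO label. *Ddx3y*, on the Y chromosome, was between 0 and 3.05 in the 6 nonconfined and confined WT libraries and between 874 and 1036 in the 6 nonconfined and confined KO libraries. *Xist*, which is expressed from an inactive X chromosome, was between 22734 and 33681 in the same WT libraries and between 12153 and 24835 in the same KO libraries. These KO libraries therefore held RNA typical of both sexes, and the presence of male cells and the genotype cannot be told apart there. Among the libraries labelled LPS it was 1271, 0 and 662 under the WT label and 2.12, 1476 and 783 under the KO label, and *Xist* was between 16450 and 30960 in these 6. Between the labels LPS KO and LPS WT limma called 0% of the genes, namely 0 (890 at an unadjusted p under 0.05), and edgeR and DESeq2 also called 0. The 10 genes had adjusted p of 0.9997 each in limma, and the genotype labels of these 6 libraries are treated below as labels only.

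In WT cells, confinement raised 5 of the 10 genes, *Gadd45a*, *Gadd45b*, *Mdm2*, *Cdkn1a* and *Btg2*, and lowered 3, *Atm*, *Phlda3* and *Ccng1*. *Trp53* and *Bbc3* did not pass the test. Of all genes tested, 28.2% rose and 28.4% fell in this comparison. A log2 fold change above 1 in size was reached by 5 of the 10, against 19% of all genes. In KO cells, confinement raised 4 genes, *Gadd45a*, *Mdm2*, *Gadd45b* and *Cdkn1a*, against 22.8% of all genes, and lowered 4, *Phlda3*, *Atm*, *Ccng1* and *Trp53*, against 23.4%. A log2 fold change above 1 in size was reached by 2 of them, *Gadd45a* and *Phlda3*, against 12% of all genes. The change with confinement itself differed between the genotypes for 6 genes by limma's test of the interaction. It was smaller or more negative in KO cells for 5 of them, *Gadd45b*, *Gadd45a*, *Btg2*, *Cdkn1a* and *Mdm2*, against 15.6% of all genes. It was higher for 1, *Atm*, against 10.2%. Both comparisons with nonconfined cells and the interaction use the same nonconfined libraries. When every library was scaled to the same total, the median of all genes shifted by -0.23 in WT cells, by -0.02 in KO cells and by 0.24 in the interaction, on the log2 scale. This scaling moves all genes of a library alike. A value relative to that median therefore returns close to the value without the scaling, and does not tell which scaling is right. With equal totals the split in WT cells was 5 higher and 4 lower, with *Trp53* added, beside 20% and 41.3% of all genes. That of the interaction was 2 higher and 5 lower, with *Ccng1* added, beside 26.5% and 11%. With TMM scaling the interaction had 1 higher and 6 lower, with *Bbc3* added, beside 8.47% and 17.2% of all genes.

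**Figure D1:**
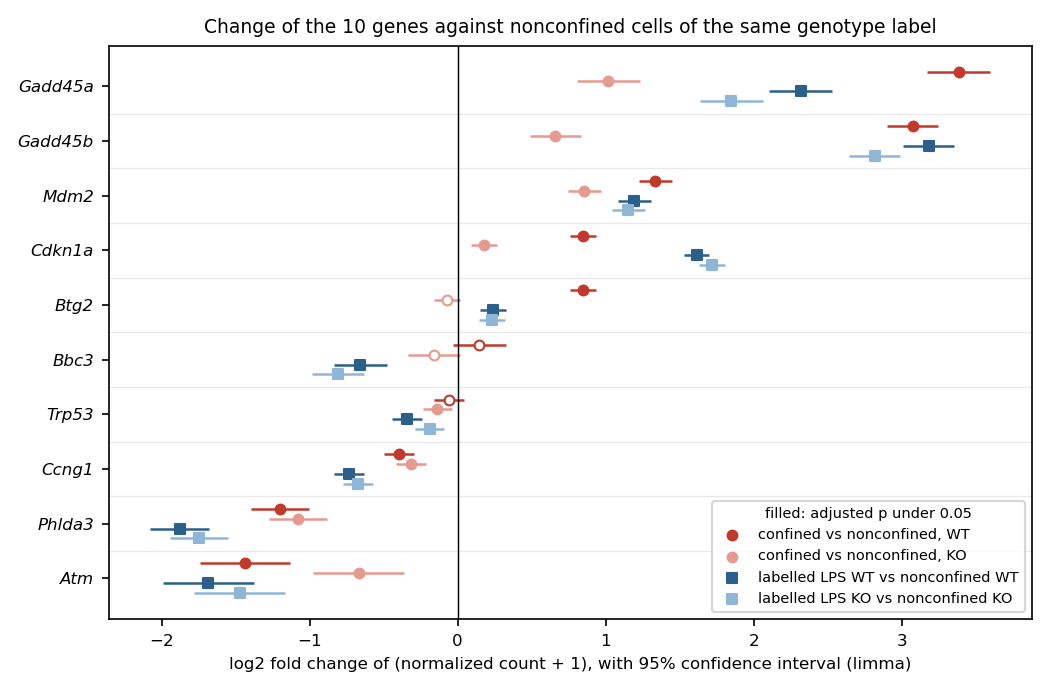
Log2 fold change of the 10 genes against nonconfined cells of the same genotype label (horizontal axis), with its 95% confidence interval from limma, for confined WT, confined KO and the libraries labelled LPS WT and LPS KO. Filled symbols have an adjusted p under 0.05. *Gadd45a* and *Gadd45b* lie farthest to the right in confined WT cells, at 3.39 and 3.08, and at 1.02 and 0.66 in confined KO cells.

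*Trp53*, the gene of p53 itself, was present at 3546, 3404 and 3489.5 normalized counts in nonconfined WT, at 3484, 3277 and 3259 in confined WT, at 3408, 3232 and 3209 in nonconfined KO and at 3099, 2851 and 3011 in confined KO libraries. The 2 WT groups overlapped, and the 3 confined KO libraries were below the 3 nonconfined KO libraries. The log2 fold change with confinement was -0.06 (standard error 0.05, adjusted p = 0.3045, limma) in WT and -0.14 (standard error 0.05, adjusted p = 0.02388) in KO cells. The call in KO cells was lost without confined KO replicate 2 (adjusted p = 0.1191), without nonconfined KO replicate 1 (0.1015) and in a fit of the compared conditions alone (0.05111), within a range of 0.00215 to 0.119 over all alternatives in limma, edgeR or DESeq2. When totals of the libraries were made equal, the log2 fold change in WT cells was -0.28 (adjusted p = 6.44e-06, limma; range over the alternatives 6.44e-06 to 0.603), or -0.06 relative to the median of all genes. For *Trp53* the difference between the changes was -0.08 (standard error 0.07, adjusted p = 0.4538, limma).

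*Atm*, whose kinase phosphorylates p53 and many repair proteins after DNA breaks, was the least abundant of the 10 per length of transcript in each of the 6 conditions. It was present at 437, 519 and 541 normalized counts in nonconfined WT and at 184, 200.7 and 166 in confined WT libraries. In KO cells it was present at 359.6, 427 and 339 before and 211, 247 and 246 after confinement. The confined libraries lay below the nonconfined ones of their genotype without overlap, and the confined KO libraries lay above the confined WT libraries. *Atm* fell by 1.44 on the log2 scale in WT (standard error 0.15, adjusted p = 2.994e-08, limma) and by 0.67 in KO cells (standard error 0.15, adjusted p = 0.0007677). The change in KO minus that in WT cells was 0.77 (standard error 0.21, adjusted p = 0.008381, limma). Without confinement the 3 KO libraries were also apart, below the 3 WT libraries, with a log2 difference of -0.41 that did not pass the test (standard error 0.15, adjusted p = 0.08955, limma).

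*Mdm2*, the feedback inhibitor of p53, rose in both genotypes. It was present at 1819.6, 1912 and 1846 normalized counts in nonconfined WT and at 4561, 4920.4 and 4616 in confined WT libraries. In KO cells it was present at 1838, 2020.96 and 1881 before and at 3324, 3422 and 3634 after confinement. The nonconfined groups overlapped, whereas each confined WT library was above each confined KO library, and these were above all 6 nonconfined libraries. The log2 fold change was 1.34 in WT (standard error 0.05, adjusted p = 6.057e-15, limma) and 0.85 in KO cells (standard error 0.05, adjusted p = 3.27e-11). Between the genotypes this change differed by -0.48 (standard error 0.08, adjusted p = 4.613e-05, limma). In the order of all 17875 changes, *Mdm2* was number 1767 from the highest in WT cells and number 2143 in KO cells.

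The paralogues *Gadd45a* and *Gadd45b*, whose small acidic proteins bind PCNA and the kinase MAP3K4 and act in growth arrest and stress signalling, had the largest changes of the 10 in WT cells. *Gadd45a* was present at 256, 218 and 239 normalized counts in nonconfined WT and at 2570.4, 2400.2 and 2496 in confined WT libraries. The KO libraries held 355, 330.5 and 357 before and 652, 709 and 757 after confinement. Both confined groups were above both nonconfined groups, and the confined WT libraries were above the confined KO libraries. *Gadd45b* was present at 846, 771 and 753 in nonconfined WT and at 6822, 6606 and 6551 in confined WT libraries. The KO libraries held 979, 943 and 1102 before and 1652, 1521 and 1600.2 after confinement. Again no groups overlapped. For *Gadd45a* the change was 10.4-fold in WT (log2 fold change 3.39, standard error 0.10, adjusted p = 4.47e-17, limma) and 2.03-fold in KO cells (1.02, standard error 0.10, adjusted p = 4.898e-08). For *Gadd45b* it was 8.43-fold in WT (3.08, standard error 0.08, adjusted p = 5.503e-18, limma) and 1.58-fold in KO cells (0.66, standard error 0.08, adjusted p = 1.069e-06). The interactions were -2.37 for *Gadd45a* (standard error 0.14, adjusted p = 2.607e-11, limma) and -2.42 for *Gadd45b* (standard error 0.12, adjusted p = 4.315e-13). In WT cells *Gadd45a* ranked number 293 and *Gadd45b* number 372 from the highest change of 17875 genes, and in KO cells they ranked number 1696 and number 2861.

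*Cdkn1a*, which encodes p21, was the most abundant of the 10 per length of transcript in each of the 6 conditions. It was present at 43296, 41849.6 and 42396 normalized counts in nonconfined WT and at 79223, 73965.5 and 76318.5 in confined WT libraries. In KO cells it was present at 39886, 39574 and 39783.5 before and at 46239.7, 42943.5 and 45734 after confinement. The confined WT libraries stood apart above the other 9, whereas the confined KO libraries overlapped those of nonconfined WT cells. *Btg2*, an antiproliferative cofactor of mRNA deadenylation, was present at 7266, 7131 and 7046 in nonconfined WT and at 13014, 12652 and 12833 in confined WT libraries. The KO libraries held 7516, 7193 and 7248 before and 7048, 6827 and 6999 after confinement. Here too the confined WT libraries stood alone, and the other 3 groups lay between 6827 and 7516. The log2 fold change of *Cdkn1a* was 0.85 in WT (standard error 0.04, adjusted p = 2.275e-13, limma) and 0.18 in KO cells (standard error 0.04, adjusted p = 0.001571). That of *Btg2* was 0.84 in WT (standard error 0.04, adjusted p = 2.647e-13, limma) and -0.07 in KO cells, which did not pass the test (standard error 0.04, adjusted p = 0.1711). The interactions were -0.67 for *Cdkn1a* (standard error 0.06, adjusted p = 1.307e-08, limma) and -0.92 for *Btg2* (standard error 0.06, adjusted p = 8.152e-11).

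**Figure D2:**
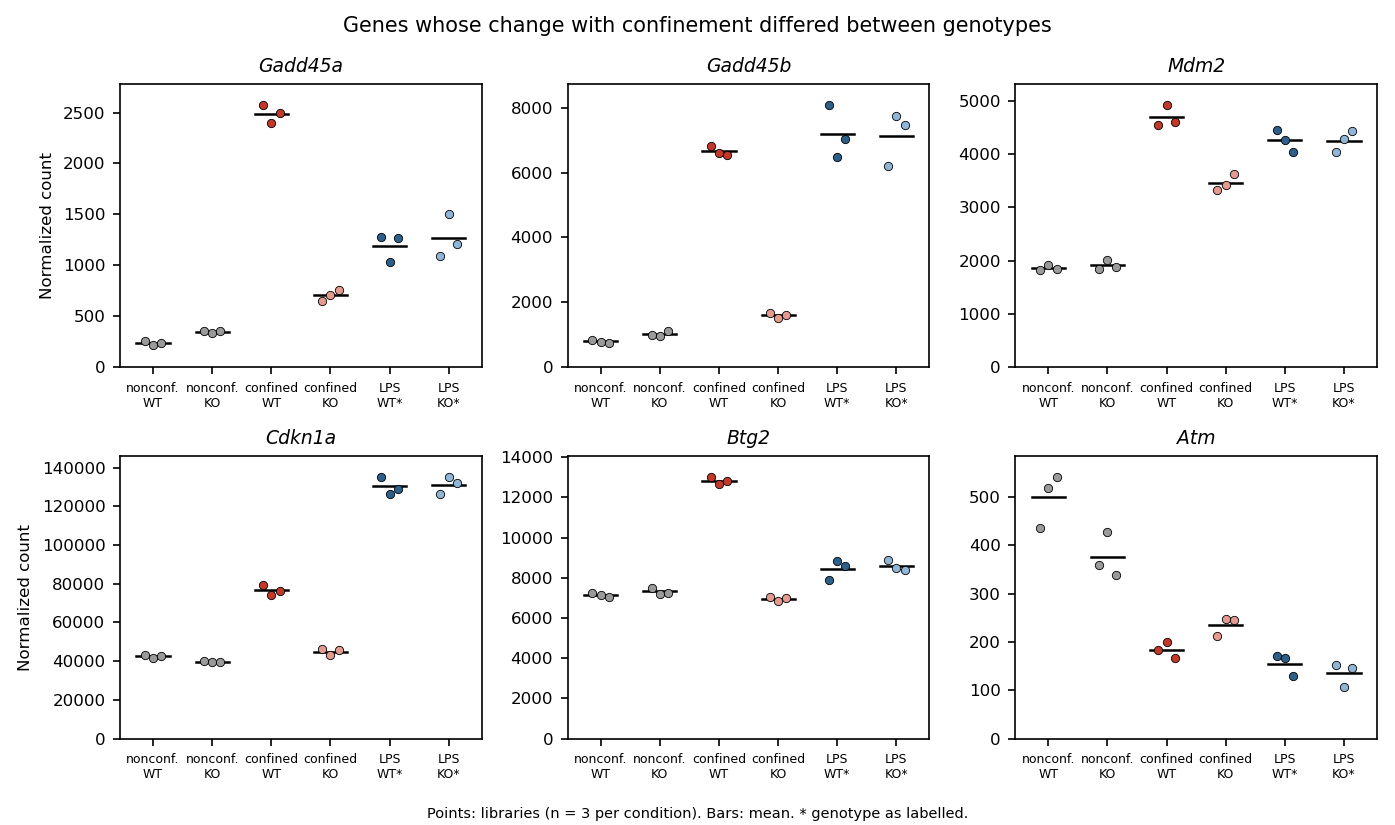
Normalized count (vertical axis, from 0) of the 6 genes whose change with confinement differed between the genotypes, in each library (points) with the mean of the 3 libraries (bars). An asterisk marks genotype as labelled in the LPS groups. For *Gadd45a*, *Gadd45b*, *Mdm2*, *Cdkn1a* and *Btg2* the confined WT libraries stand above the confined KO libraries and all nonconfined libraries.

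*Phlda3*, which encodes a repressor of AKT, and *Ccng1*, which encodes cyclin G1, fell in both genotypes. *Phlda3* was present at 825, 812 and 840.2 normalized counts in nonconfined WT and at 365, 316 and 400.4 in confined WT libraries. In KO cells it was present at 901, 766 and 791 before and at 412, 376 and 373 after confinement. The 6 confined libraries lay far below the 6 nonconfined ones, and the genotypes overlapped within each treatment. *Ccng1* was present at 5297, 5369.6 and 5525 in nonconfined WT, at 4373, 4017 and 3941 in confined WT, at 4818, 5219 and 5316 in nonconfined KO and at 4264, 3905 and 4162 in confined KO libraries. It showed the same order with a smaller gap. The log2 fold change of *Phlda3* was -1.20 in WT (standard error 0.09, adjusted p = 5.103e-10, limma) and -1.08 in KO cells (standard error 0.09, adjusted p = 6.222e-09). That of *Ccng1* was -0.39 in WT (standard error 0.05, adjusted p = 5.497e-07, limma) and -0.32 in KO cells (standard error 0.05, adjusted p = 1.859e-05). The interactions did not pass the test, at 0.12 for *Phlda3* with a 95% confidence interval of -0.16 to 0.40 (adjusted p = 0.5656, limma) and at 0.08 for *Ccng1* with an interval of -0.07 to 0.22 (adjusted p = 0.4574). When totals of the libraries were made equal, the interaction of *Ccng1* was 0.27 (adjusted p = 0.003051, limma; range over the alternatives 0.00305 to 0.768), or 0.03 relative to the median of all genes.

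*Bbc3*, which encodes the BH3-only protein PUMA, passed the test with confinement in neither genotype. It was present at 1860.0, 1493 and 1566 normalized counts in nonconfined WT, at 1869.8, 1826 and 1732 in confined WT, at 1736, 1581 and 1829 in nonconfined KO and at 1633, 1629 and 1353 in confined KO libraries. Nonconfined WT replicate 1 was close to the confined WT libraries and above the other nonconfined WT libraries. The log2 fold change was 0.15 in WT (standard error 0.09, adjusted p = 0.1498, limma) and -0.16 in KO cells (standard error 0.09, adjusted p = 0.134). Without nonconfined WT replicate 1 the change in WT cells was 0.24 and passed the test (adjusted p = 0.02318, limma; range over the alternatives 0.0232 to 0.479). *Bbc3* had a difference between the changes of -0.31 (standard error 0.12, adjusted p = 0.06691, limma). It passed the test with TMM scaling (adjusted p = 0.04325, limma), in edgeR (0.04549), without nonconfined KO replicate 2 (0.03513) and without nonconfined WT replicate 1 (0.0148), within a range of 0.0148 to 0.461 over the alternatives.

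**Figure D3:**
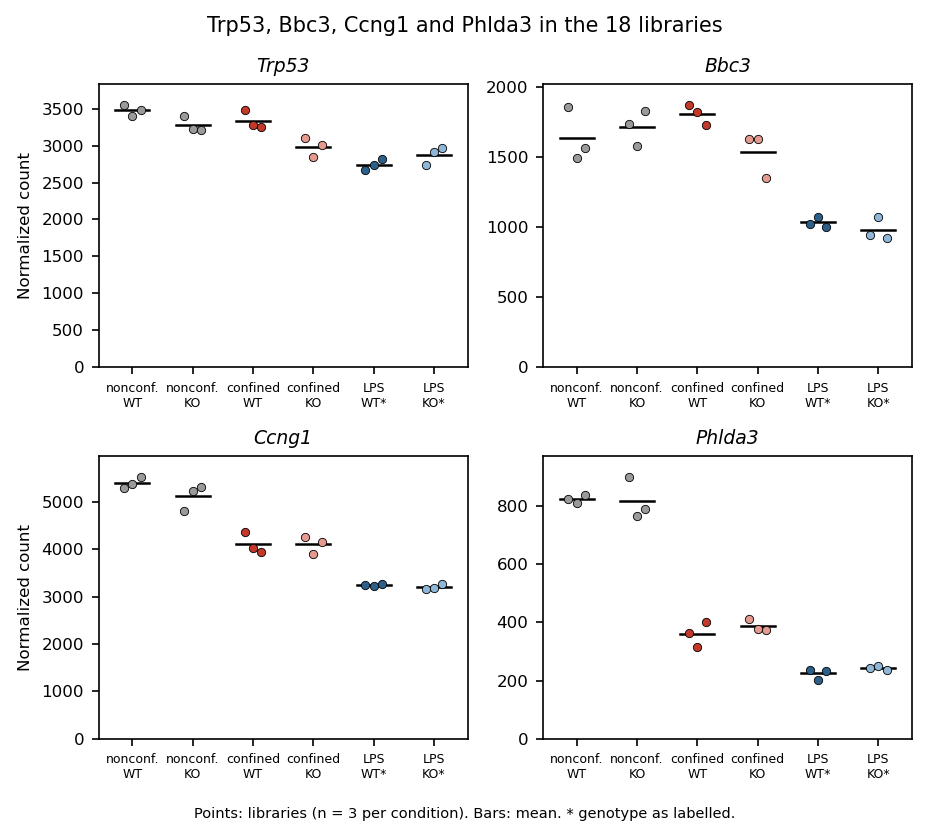
Normalized count (vertical axis, from 0) of the 4 genes whose change with confinement did not differ between the genotypes by the test, in each library (points) with the mean of the 3 libraries (bars). An asterisk marks genotype as labelled in the LPS groups. *Phlda3* and *Ccng1* are lower in all 6 confined libraries than in the 6 nonconfined ones.

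The genotypes were also compared without confinement. *Gadd45a* and *Gadd45b*, 2 of the 10, were higher in nonconfined KO than in nonconfined WT cells, against 4.78% of all genes, and none was lower, against 4.11%. The log2 difference was 0.55 for *Gadd45a* (standard error 0.10, adjusted p = 0.001864, limma) and 0.35 for *Gadd45b* (standard error 0.08, adjusted p = 0.01059), and every KO library was above every WT library for both genes. The call of *Gadd45b* was lost without nonconfined KO replicate 3 (adjusted p = 0.07285, limma) and without nonconfined WT replicate 3 (0.05786), within a range of 0.000894 to 0.0728 over the alternatives. That of *Atm*, at -0.41, was gained in DESeq2 (adjusted p = 0.02809), without LPS KO replicate 2 (0.04975), without nonconfined KO replicate 2 (0.04607) and without the libraries labelled LPS (0.02713, a fit added after the data had been seen), within a range of 0.0271 to 0.282. *Cdkn1a*, at -0.10, was called only when libraries were scaled to the same total (-0.13, adjusted p = 0.01449, limma; range 0.0145 to 0.356), where 2 of the 10 genes were higher and 1 lower, beside 4.23% and 5.85% of all genes. After confinement, 7 of the 10 were lower in KO than in WT cells, against 20.6% of all genes, and none was higher, against 18.8%. The log2 difference was -2.07 for *Gadd45b*, -1.82 for *Gadd45a*, -0.88 for *Btg2*, -0.77 for *Cdkn1a* and -0.44 for *Mdm2*, with adjusted p between 8.301e-15 and 8.492e-07 in limma and no overlap between the genotypes. The median over the 10 genes was -0.34, beside 0.04 over all genes tested.

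The other 2 calls between the confined groups were small and less stable. *Trp53* was lower in confined KO than in confined WT cells by a log2 difference of -0.16 (standard error 0.05, adjusted p = 0.01031, limma), a call lost without confined KO replicate 2 (0.06063), without confined WT replicate 1 (0.06118) and with equal totals (0.9233), within a range of 0.00157 to 0.923. *Bbc3* was lower by -0.24 (standard error 0.09, adjusted p = 0.03078, limma). Its call was lost without confined KO replicate 3 (adjusted p = 0.208, limma), without confined WT replicate 1 (0.09752) or replicate 2 (0.07701), without a filter on low values (0.05292) and with equal totals (0.4418), within a range of 0.0179 to 0.442. In these fits the log2 difference of *Bbc3* was -0.15, -0.21, -0.23, -0.24 and -0.08, in the same order. *Atm*, at 0.36 and an adjusted p of 0.06014 in limma, was called higher in KO cells under 7 alternatives. These were equal totals (0.008859), the fit without the libraries labelled LPS (0.02042), the conditions compared alone (0.0395), a filter of 100 normalized counts (0.04757), and fits without LPS KO replicate 2 (0.03406), LPS WT replicate 3 (0.04765) or confined KO replicate 1 (0.04812), within a range of 0.00886 to 0.195. With equal totals the median of all genes was 0.19 in this comparison and the split of the 10 genes was 3 higher and 5 lower, in place of 0 and 7, beside 33.6% and 14.6% of all genes. The 3 were *Atm* at 0.51, *Phlda3* at 0.26 and *Ccng1* at 0.16, which stood at 0.32, 0.07 and -0.04 relative to that median. *Trp53* and *Bbc3*, not called in that setting, stood at -0.20 and -0.28 relative to the same median.

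Under LPS all 10 genes differed from nonconfined cells, for either label. In the libraries labelled LPS WT, *Cdkn1a* was present at 135101, 126453 and 129146 normalized counts, *Gadd45a* at 1276, 1032 and 1271, *Gadd45b* at 8078, 6494 and 7035 and *Mdm2* at 4465, 4275 and 4044. In those labelled LPS KO, *Cdkn1a* was present at 126443, 135083 and 131824, *Gadd45a* at 1088, 1499 and 1208, *Gadd45b* at 6191, 7766 and 7464 and *Mdm2* at 4043, 4298 and 4437. For each of these 4 genes the labels overlapped, and all 6 libraries were above all 6 nonconfined libraries. Of the 10 genes, 5 were higher and 5 lower in the libraries labelled LPS WT than in nonconfined WT cells, against 33.4% and 29.4% of all genes. The same split of 5 and 5 was found in the libraries labelled LPS KO against nonconfined KO cells, beside 33.4% and 30.1% of all genes. *Cdkn1a* rose by a log2 fold change of 1.61 under the WT label (standard error 0.04, adjusted p = 1.581e-18, limma) and 1.72 under the KO label (standard error 0.04, adjusted p = 5.14e-19). *Gadd45b* rose by 3.18 and 2.82, *Gadd45a* by 2.32 and 1.85, *Mdm2* by 1.195 and 1.15 and *Btg2* by 0.24 and 0.23 under the WT and KO labels. *Btg2* turned to -0.27 and -0.25 with equal totals, when the median of all genes was -0.47 and -0.44 and the split was 4 higher and 6 lower under both labels. The shares of all genes then were 17.8% and 52% for the WT label and 18.3% and 51.4% for the KO label, and *Btg2* stood at 0.20 and 0.19 relative to the median of all genes. *Phlda3* changed by -1.88 and -1.75, *Atm* by -1.68 and -1.47, *Ccng1* by -0.73 and -0.67, *Bbc3* by -0.66 and -0.81 and *Trp53* by -0.34 and -0.19. These comparisons share the nonconfined libraries with those of confinement.

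Confined WT cells were also set against the libraries labelled LPS WT. Treatment and collection time cannot be told apart here or in the comparisons of LPS above. The presence of male cells differed too. *Ddx3y* was at 1271, 0 and 662 in the libraries labelled LPS WT and between 0 and 2.37 in confined WT libraries. In this comparison 7 of the 10 genes were higher in confined cells, against 21.6% of all genes, and 1, *Cdkn1a*, was lower, against 27.2%. *Gadd45a* was higher by a log2 difference of 1.07 (standard error 0.10, adjusted p = 1.812e-08, limma), and *Bbc3* by 0.81 (standard error 0.09, adjusted p = 7.845e-08). *Bbc3* was present at 1025, 1075 and 1004 normalized counts under LPS WT and at 944, 1069 and 925 under LPS KO, so that all 6 of these libraries were below the 12 others. *Phlda3* was higher in confined cells by 0.68, *Btg2* by 0.60, *Ccng1* by 0.34, *Trp53* by 0.28 and *Mdm2* by 0.14. *Cdkn1a* was lower, at -0.77 (standard error 0.04, adjusted p = 2.399e-12, limma). The call of *Mdm2* (adjusted p = 0.03452, limma) was lost without a filter on low values (0.05713) and without LPS WT replicate 2 (0.05901) or 3 (0.1682) or confined WT replicate 2 (0.1533) or 3 (0.0508), within a range of 1.49e-06 to 0.168. *Gadd45b* did not pass the test, at -0.11 (standard error 0.08, adjusted p = 0.3016, limma), and was 0.18 with equal totals (adjusted p = 0.04622; range 0.0462 to 0.86), or -0.08 relative to the median of all genes. *Atm* did not pass the test either, at 0.25 (standard error 0.15, adjusted p = 0.1788, limma), and was 0.53 with equal totals (adjusted p = 0.005689; range 0.00569 to 0.578), or 0.27 relative to the median. In that setting the median of all genes was 0.26, and the split was 9 higher and 1 lower, beside 41.1% and 13.7% of all genes.

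Ordered by mean, the conditions ranked differently from gene to gene. *Gadd45a*, *Mdm2*, *Btg2* and *Bbc3* had their highest mean in confined WT cells, for *Bbc3* with overlap with the next group and for the others without. *Cdkn1a* and *Gadd45b* had theirs in the libraries labelled LPS, where the labels overlapped, and *Trp53*, *Atm*, *Ccng1* and *Phlda3* in nonconfined WT cells. There *Trp53*, *Ccng1* and *Phlda3* overlapped with the next group, and *Atm* did not. *Gadd45b* at 6659.9 ± 143 normalized counts (SD, n = 3) in confined WT cells overlapped both LPS groups, at 7202 ± 805 and 7140 ± 836 (SD, n = 3). Per kilobase of canonical transcript, *Cdkn1a* in nonconfined WT cells stood at 22108 normalized counts, *Btg2* at 2606, *Trp53* at 1881, *Ccng1* at 1537, *Gadd45b* at 615, *Bbc3* at 611, *Mdm2* at 600.0, *Phlda3* at 359.8, *Gadd45a* at 193 and *Atm* at 39.8. In confined WT cells *Gadd45b* stood at 5187 and *Gadd45a* at 2018, above *Trp53* at 1805, per kilobase. By the study's methods, counts were made on FAST DB gene models, whereas the lengths are of canonical transcripts in the GENCODE annotation. All exons of *Trp53* together span 7379 bases, beside 1850 in its canonical transcript. The order per kilobase therefore depends on the length chosen.

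Strands are those of GENCODE, whose start, end or both differ from the table of normalized counts for each of the 10 genes. The table places the genes on mm39 as follows, with its identifier in parentheses. *Trp53* (GSMG0007621) lies at chr11:69471185-69482699 on the plus strand, *Atm* (GSMG0058360) at chr9:53348422-53447974 on the minus strand, *Mdm2* (GSMG0006661) at chr10:117524781-117546663 on the minus strand and *Cdkn1a* (GSMG0022982) at chr17:29309950-29319696 on the plus strand. *Gadd45a* (GSMG0046255) lies at chr6:67012080-67014391 on the minus strand, *Gadd45b* (GSMG0004075) at chr10:80765906-80768038 on the plus strand and *Btg2* (GSMG0002399) at chr1:134002603-134006893 on the minus strand. *Ccng1* (GSMG0009072) lies at chr11:40639381-40646113 on the minus strand, *Phlda3* (GSMG0000907) at chr1:135693823-135696871 on the plus strand and *Bbc3* (GSMG0047801) at chr7:16043508-16052259 on the plus strand. In the GENCODE annotation of GRCm39, a gene on the opposite strand overlaps 7 of the 10, among them *Wrap53* at *Trp53*, *Dino* at *Cdkn1a* and *Nudcd2* at *Ccng1*, and none overlaps *Gadd45b*, *Phlda3* or *Bbc3*. The libraries were strand-specific, but how strand was handled in counting is not stated.

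Across the 18 libraries, the genes with the most similar profile were sought among 10553 genes, with Pearson's r of log2 values as a description. All libraries of a condition share their treatment, so a high r mostly reports the order of the 6 conditions. Closest to *Gadd45b* were *Ptges* (r = 0.998), *Stx11* (0.9972) and *Tlr2* (0.9966). Closest to *Gadd45a* were *Itih1* (0.9908), *Nupr1* (0.987) and *Gab1* (0.9848). Closest to *Cdkn1a* were *Gpr84* (0.9983), *Myo1g* (0.9976) and *6530402F18Rik* (0.9974), and closest to *Mdm2* were *Gna13* (0.9905), *P2ry2* (0.9888) and *Dnajb4* (0.9882). For *Btg2* they were *Hs6st1* (0.9797), *Rhou* (0.9788) and *Ssx2ip* (0.9735). For *Phlda3* they were *Exo1* (0.9891), *Eogt* (0.9891) and *H2-DMa* (0.989), for *Ccng1* *Zfp385a* (0.9908), *Prkd2* (0.9838) and *Aldh4a1* (0.9837). For *Atm* they were *Cbx5* (0.9778), *Ctps* (0.9748) and *Rrm2* (0.9734), for *Trp53* *Klhl5* (0.9397) and *Gas5* (0.9373), and for *Bbc3* *Arhgap23* (0.9753), *2700099C18Rik* (0.9581) and *Mpst* (0.958). Among the 10 genes themselves, r was 0.95 between *Gadd45a* and *Mdm2*, 0.964 between *Ccng1* and *Phlda3* and -0.929 between *Gadd45b* and *Atm*.

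The promoters of these genes were read for the letters that p53, NF-κB and E2F proteins are known to prefer. The RefSeq promoter sequences of GRCm38.p6, which run from 250 bases before to 50 after a start, hold 13 promoters of the 10 genes among 32851. They were searched on both strands for the p53 consensus element, a pair of 10-base half-sites with a spacer of 0 to 13 bases, for the half-site alone, for the NF-κB consensus, and for the E2F words TTTCCCGC, TTTCGCGC, TTTGCCGC and TTTGGCGC. The half-site is its own reverse complement, and a match describes letters, not a bound site. The full element occurred in 1 of the 13, a promoter of *Cdkn1a*, and in 0.0731% of all promoters. A half-site occurred in 5 of the 13, 1 each of *Trp53*, *Cdkn1a*, *Mdm2*, *Ccng1* and *Gadd45a*, and in 8.36% of all promoters. The NF-κB consensus occurred in 2, those of *Trp53* and 1 of 3 of *Bbc3*, and in 8.46% of all promoters, and the E2F words in none, beside 2.26% of all promoters. Shown 5′ to 3′ are the promoters with a half-site among the 4 genes that rose with confinement in both genotypes, of which *Gadd45b* has none, with half-sites in capitals. They are chr17:29090729-29091028 on the plus strand for *Cdkn1a*, chr10:117710709-117711008 on the minus strand for *Mdm2* and chr6:67037358-67037657 on the minus strand for *Gadd45a*, all in GRCm38.p6.
Cdkn1a: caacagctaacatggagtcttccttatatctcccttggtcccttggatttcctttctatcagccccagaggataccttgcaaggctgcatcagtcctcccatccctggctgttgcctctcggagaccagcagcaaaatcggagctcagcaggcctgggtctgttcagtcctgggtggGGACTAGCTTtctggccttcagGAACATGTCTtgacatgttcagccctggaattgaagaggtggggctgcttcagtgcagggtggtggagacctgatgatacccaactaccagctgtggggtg
Mdm2: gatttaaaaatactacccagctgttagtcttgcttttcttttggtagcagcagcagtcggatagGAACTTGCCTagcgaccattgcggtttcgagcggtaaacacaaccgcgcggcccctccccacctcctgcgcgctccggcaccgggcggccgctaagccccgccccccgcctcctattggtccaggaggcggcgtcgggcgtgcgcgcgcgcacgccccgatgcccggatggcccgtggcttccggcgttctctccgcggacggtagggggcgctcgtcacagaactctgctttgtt
Gadd45a: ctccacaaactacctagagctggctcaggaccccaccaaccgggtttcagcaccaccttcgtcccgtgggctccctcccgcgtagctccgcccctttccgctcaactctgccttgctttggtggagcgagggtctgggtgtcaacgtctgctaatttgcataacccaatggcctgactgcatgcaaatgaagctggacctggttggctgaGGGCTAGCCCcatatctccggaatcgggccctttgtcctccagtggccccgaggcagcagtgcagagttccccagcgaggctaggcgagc
The *Cdkn1a* element runs from position -73 to -42 before this start with a spacer of 12 bases, and the other *Cdkn1a* promoter holds no match. The half-site of *Mdm2* begins at position -186 and that of *Gadd45a* at -40.

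In GRCm39, the stretch from 5000 bases before each gene to its end was searched for the full element as well. Of the 10 genes only *Cdkn1a* held one, at chr17:29309880-29309911, the element shown above, at position -2858 from the start of the canonical transcript used for the levels per kilobase. Of all windows of the same length, 14766 bases, 3.53% hold one. For the other 9 genes this share ranged from 1.79% for *Gadd45a* to 21.9% for *Atm*, whose stretch is the longest. The search allows no mismatch, so a gene without a match may still hold an element that departs from the consensus.

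Other genes of the pathway moved in both directions with confinement. For the counts in this and the next 3 paragraphs, without a change of scaling, the shares of all genes were 28.2% higher and 28.4% lower in WT cells, 22.8% and 23.4% in KO cells and 10.2% and 15.6% for the interaction. Under LPS they were 33.4% and 29.4% for the WT label and 33.4% and 30.1% for the KO label. For the counts with equal totals, the shares were 20% and 41.3% in WT cells, 20.8% and 25.9% in KO cells, 26.5% and 11% for the interaction, 17.8% and 52% for LPS WT and 18.3% and 51.4% for LPS KO. Of 30 further p53 target genes, 7 rose and 12 fell in WT cells, with a median log2 fold change of -0.19 beside -0.01 over all genes tested. In KO cells 8 rose and 12 fell, and the interaction was negative for 6 and positive for 6. *Fas*, a death receptor, rose by a log2 fold change of 1.97 in WT cells (adjusted p = 3.867e-14, limma) and of 0.56 in KO cells. *Ddit4*, an inhibitor of mTORC1, had log2 fold changes of 3.34 in WT and 0.57 in KO cells. *Pidd1*, a death domain protein of the PIDDosome, changed by -1.50 and -1.01, and *Sesn1*, a stress-inducible inhibitor of mTORC1, by -1.33 and -0.44. Of 17 tested regulators and cofactors of p53, 3 rose and 4 fell in WT cells and 6 rose and 2 fell in KO cells, and the interaction was positive for 3 and negative for 1. *Ppp1r13l*, which encodes the p53 inhibitor iASPP, rose by 1.27 and 0.90, and *Usp10*, a deubiquitinase of p53, changed by -0.67 and -0.27. *Trp63* and *Trp73* did not pass the filter on low values. Under LPS, 12 of the further targets were higher and 14 lower for the WT label and 12 and 15 for the KO label, and of the regulators 8 and 6 for the WT label and 9 and 4 for the KO label. With equal totals, the targets split into 7 higher and 18 lower in confined WT cells and 7 and 13 in confined KO cells, and their interaction was positive for 12 and negative for 5. The regulators then split into 2 and 9 in confined WT cells and 6 and 2 in confined KO cells, with an interaction positive for 6 and negative for 0. Under LPS with equal totals, 7 targets were higher and 19 lower for the WT label and 8 and 19 for the KO label, and of the regulators 2 and 10 for the WT label and 2 and 9 for the KO label.

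The sensors of DNA damage and the checkpoint kinases beside *Atm* were counted in the same way. Of 21 tested, 3 rose and 17 fell in WT cells (median -0.54, with 28.4% of all genes lower), and 3 rose and 11 fell in KO cells (median -0.22, with 23.4% lower), with an interaction that was positive for 7 and negative for 1. *Chek1* and *Chek2*, the checkpoint kinases, changed by -1.16 and -1.21 in WT cells, and *Rnf8*, a ubiquitin ligase at DNA breaks, rose by a log2 fold change of 1.60 in WT and of 0.21 in KO cells, with an interaction of -1.38 (adjusted p = 3.176e-13, limma). Of 30 DNA repair genes, 1 rose and 18 fell in WT cells and 1 rose and 15 fell in KO cells, and the interaction was positive for 8 and negative for 1. *Ung*, which removes uracil from DNA, changed by -3.19 and -2.04, and *Polb*, the polymerase of base excision repair, by 0.75 and -0.24. Of 20 cell division genes, 0 rose and 19 fell in WT cells and 0 rose and 18 fell in KO cells (medians -0.91 and -0.57), and the interaction was positive for 10 and negative for 0. *Mcm2*, of the replicative helicase, changed by -1.62 and -1.13. Under LPS, 4 of the sensors and kinases were higher and 14 lower for the WT label and 5 and 13 for the KO label. Of the repair genes 5 were higher and 19 lower for the WT label and 5 and 20 for the KO label, and of the cell division genes 0 and 19 and 0 and 18. With equal totals, 1 sensor or kinase was higher and 18 lower in confined WT cells and 3 and 14 in confined KO cells, and the repair genes were 1 and 28 in WT and 0 and 15 in KO cells, where 41.3% and 25.9% of all genes were lower. The interaction then was positive for 15 and negative for 1 of the sensors and kinases, positive for 19 and negative for 1 of the repair genes and positive for 17 and negative for 0 of the cell division genes. Under LPS with equal totals, the sensors and kinases were 1 higher and 18 lower for the WT label and 1 and 16 for the KO label, and the repair genes 1 and 25 for both labels.

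Relatives of the 10 genes were counted as well. Of 12, 8 rose and 2 fell in WT cells (median 0.90, with 28.2% of all genes higher and 28.4% lower) and 5 rose and 3 fell in KO cells (median 0.18, with 22.8% and 23.4%), and the interaction was negative for 5 and positive for 1. *Ccng2*, the paralogue of *Ccng1*, rose from 769.9 to 2507 normalized counts in WT cells (log2 fold change 1.70, adjusted p = 2.81e-12, limma) and had a change of 0.25 in KO cells, with an interaction of -1.45 (adjusted p = 4.02e-08). *Cdkn1b*, which encodes p27, rose by 1.29 in WT cells and stood at 0.11 in KO cells, without passing the test there, with an interaction of -1.19 (adjusted p = 5.883e-08, limma). *Phlda1*, a relative of *Phlda3*, rose by 1.14 and 0.65. *Gadd45g*, the third GADD45 gene, had a change of 0.35 in WT and 0.56 in KO cells, with an interaction of 0.21 that did not pass the test (adjusted p = 0.4111, limma). Under LPS, 6 relatives were higher and 4 lower for the WT label and 7 and 5 for the KO label. With equal totals, 6 were higher and 2 lower in confined WT cells and 4 and 3 in confined KO cells, and the interaction was positive for 1 and negative for 5.

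Markers of DCs and of other cells moved with the same groups. The summed level of 10 DC markers, of which *Cd74* was the most abundant, was 503365 normalized counts in nonconfined WT, 610594 in nonconfined KO, 448030 in confined WT, 423058 in confined KO, 748861 in LPS WT and 748569 in LPS KO libraries, as means of 3. None of the 10 was at 0. Of these 10, 1 rose and 7 fell with confinement in WT cells and 0 rose and 9 fell in KO cells, and the interaction was positive for 0 and negative for 7 (1 and 4 with equal totals). The 10 neutrophil markers, led by *S100a9* and none at 0, summed to between 255259 and 260185 in the 3 nonconfined WT libraries, between 355398 and 391270 in nonconfined KO, between 162046 and 171734 in confined WT and between 355722 and 369573 in confined KO libraries. Of these, 0 rose and 8 fell in WT cells and 2 rose and 3 fell in KO cells, and the interaction was positive for 8 and negative for 0. All 10 were higher in confined KO than in confined WT cells, against 18.8% of all genes. The 8 eosinophil markers, led by *Prg2* and none at 0, summed on average to 33357 in nonconfined WT, 79209 in nonconfined KO, 9483 in confined WT and 25084 in confined KO libraries. Of these, 1 rose and 6 fell in WT and 0 rose and 7 fell in KO cells. The 10 macrophage markers, led by *Lyz2* and none at 0, summed on average to 305132, 342112, 334147 and 395559 in the same order. Of these, 2 rose and 4 fell in WT and 2 rose and 5 fell in KO cells, and the interaction was positive for 0 and negative for 1. The 10 mast cell and basophil markers summed on average to 7804, 11396, 15901 and 7032. *Hdc* was the most abundant of them over all libraries and made up 735 of the sum in nonconfined WT and 12369.5 in confined WT libraries, whereas *Cpa3* led in the nonconfined and confined KO groups and in nonconfined WT cells. The log2 fold change in confined WT cells was 4.07 for *Hdc*, -1.37 for *Cpa3*, -1.64 for *Mcpt8* and -2.21 for *Ms4a2*, and *Mcpt4* was at 0 in all groups but nonconfined WT. Of the 9 tested, 2 rose and 6 fell in WT and 2 rose and 7 fell in KO cells. In the libraries labelled LPS WT and LPS KO, the mean sums were 308730 and 306102 for neutrophil, 294317 and 298839 for macrophage, 17668 and 17932 for mast cell and basophil and 37734 and 38021 for eosinophil markers. With equal totals, the splits in confined WT and confined KO cells and of the interaction were 0 higher and 10 lower, 2 and 5, and 10 and 0 for neutrophil markers, and 0 and 6, 2 and 5, and 4 and 1 for macrophage markers. For mast cell and basophil markers they were 1 and 7, 2 and 7, and 3 and 1, and for eosinophil markers 1 and 6, 0 and 7, and 2 and 1. The mean normalized total was 34125100 per library in nonconfined WT, 34932739 in nonconfined KO, 39890270 in confined WT and 35818964 in confined KO cells. It was 48718670 and 48721816 in the libraries labelled LPS WT and LPS KO. There 9 DC markers were higher and 0 lower for the WT label and 7 and 0 for the KO label, and 4 and 2 and 2 and 5 with equal totals. Of the neutrophil markers 4 were higher and 4 lower for the WT label and 1 and 7 for the KO label, and 0 and 8 and 0 and 10 with equal totals. Of the macrophage markers 2 were higher and 4 lower and 2 and 7, and 1 and 8 for both labels with equal totals. The part of these markers in the changes of the 10 genes was not tested.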

How the data were processed

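The values are gene-level signal as deposited: the authors counted reads on genes and divided the counts by a DESeq2 size factor per library. The submitters' notes name STAR 2.7.5a, featureCounts 1.5.0 and R 3.5.3. Dividing each library by the worth of 1 read, found from its smallest value above 0, recovered whole reads for 100% of the values within 0.01 of a read, and these were used with edgeR and DESeq2. The filter on low values asked for 10 or more normalized counts in 3 or more libraries, and 17875 of 62197 genes passed it. A pseudocount of 1 was added before the log2 step, and limma 3.58.1 was run with 1 mean per condition over 18 libraries. Adjustment of p-values was that of Benjamini and Hochberg, over all genes tested. The alternatives used edgeR 4.0.16, DESeq2 1.42.0, other filters, pseudocounts, scalings, thresholds and sets of libraries. The fit without libraries labelled LPS was added after the data had been seen. The 10 genes and the lists were chosen with earlier results of these data known. The lists are further p53 target genes, regulators and cofactors of p53, DNA damage sensors and checkpoint kinases, DNA repair, relatives of the 10 genes, cell division genes, and markers of DCs, neutrophils, macrophages, mast cells and basophils, and eosinophils. Genes named for their change in a list of pathway genes or relatives are among the 3 largest changes in either direction that passed the test in 1 genotype, at a mean of 100 normalized counts or more, and markers are named for abundance, for a change or as absent. *H2afx*, an older symbol of *H2ax*, was not found, and *Trp63*, *Trp73* and *Mcpt4* were below the filter. Promoters are RefSeq sequences of GRCm38.p6, and gene spans were read in GRCm39.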

Additional observations from a re-analysis of the deposited data

Results flagged for a closer look

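The change with confinement differed between WT and KO cells for 6 of the 10 genes, against 25.8% of all genes. These 6 drew attention by limma's test of the interaction. As the change in KO minus that in WT cells on the log2 scale, *Gadd45b* had -2.42 (adjusted p = 4.315e-13, limma) and *Gadd45a* -2.37 (adjusted p = 2.607e-11). *Btg2* had -0.92 (adjusted p = 8.152e-11, limma), *Cdkn1a* -0.67 (adjusted p = 1.307e-08) and *Mdm2* -0.48 (adjusted p = 4.613e-05). *Atm* had 0.77 (adjusted p = 0.008381, limma).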

How the results depend on the processing

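Across 32 alternatives, of which 18 leave out 1 library, 2770 values of the 10 genes were compared with those above. Of these, 2675 kept their call, 70 became weaker, 22 became stronger and 3 changed sign with a call in at least 1 of the fits. A further 24 changed sign without a call in either, and are counted among those that kept it. The 3 arose with equal totals per library: *Btg2* stood at -0.27 under LPS WT and -0.25 under LPS KO against nonconfined cells, and *Gadd45b* at 0.18 in confined WT against LPS WT cells, where it had no call before. Relative to the median of all genes they stood at 0.20, 0.19 and -0.08. Of 277 counts of called genes, 263 stayed within a factor of 1.5 of the count above and 14 did not. With a threshold of log2 fold change 1, the count (share of all genes) was 5 (19%) for confined against nonconfined WT cells, 2 (12%) for KO cells, 2 (7.67%) for the interaction, 0 (1.15%) for nonconfined KO against WT, 2 (10.1%) for confined KO against WT, 6 for each LPS label against nonconfined cells (27.4% and 27.9%) and 1 (13.8%) for confined WT against LPS WT. With the thresholds of the study's methods it was 5 (23.6%) for confined against nonconfined KO cells, 0 (5.59%) for nonconfined KO against WT, 4 (19.4%) for confined KO against WT and 5 (26.2%) for confined WT against LPS WT. Leaving out 1 library gave counts of 1 to 3 for nonconfined KO against WT and 5 to 8 for confined KO against WT. With all libraries these counts were 2 and 7, beside 8.88% and 39.4% of all genes. With replicate number as a block, the splits of the 10 genes were unchanged.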
